A study of Mus musculus with 9 samples.

Results

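Genes for 6 surface proteins tied to leukaemia stem cells or to blood vessels, and the gene for the ligand angiopoietin 1, were followed through knockdown of the RNA-binding protein SYNCRIP in mouse leukaemia cells. The 7 genes are Cd34, Cd44, Cd47, Cd93, Il1rap, Eltd1 (now named Adgrl4) and Angpt1. They were found by symbol in the count table of every library, out of 38926 symbols, and all 7 passed the filter on low counts that left 12663 genes. The cells belong to a mouse acute myeloid leukaemia made with the MLL-AF9 fusion oncogene, carried through 3 rounds of transplantation, and every group shares that fusion. They received a control hairpin or either of shRNA-1 and shRNA-2, 2 short hairpin RNAs (shRNAs) against Syncrip, and RNA was taken at day 4. Each group has 3 libraries, described as transduced and handled separately. The p-values measure the spread between such cultures of 1 leukaemia, and the sources used here do not say whether separate mice stand behind them. The sample labels call the control hairpin a scramble and the design text names luciferase as its target.

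As background, leukaemia stem cells are the fraction of a leukaemia that can renew itself and start the disease again, and surface proteins are used to sort them and as targets of antibodies. CD34 marks blood stem and progenitor cells, CD44 anchors cells to hyaluronan in the bone marrow, CD47 holds off phagocytosis by macrophages, and CD93 and IL1RAP are carried by leukaemia stem cells of some patients. Angiopoietin 1 is a secreted ligand of the receptor TEK, known for keeping blood stem cells quiet in their niche, and ELTD1 is an adhesion G-protein-coupled receptor known from endothelium. CD34 and CD93 are endothelial proteins as well.

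Library totals ran from 13683660 to 19483923 counts in the controls, from 9559638 to 13416141 under shRNA-1 and from 14953491 to 15915940 under shRNA-2. Syncrip stood at 227 ± 17.5 CPM (counts scaled to library size) in the controls, 17.8 ± 2.13 under shRNA-1 and 56.7 ± 9.05 under shRNA-2 (mean ± SD, n = 3 each), as the labels say. Counts of ribosomal RNA genes made up 4.77% to 8.29% of the controls, 11.98% to 19.3% of the shRNA-1 and 6.10% to 15.8% of the shRNA-2 libraries. Markers of the labelled cell type were present in every group: the 10 leukaemia cell genes of the list, among them Ptprc, Itgam, Hoxa9 and Meis1, summed to between 1763 and 2290 CPM. Summed B cell markers reached at most 18.4 CPM in any library, T and NK cell markers 4.80 and erythroid markers 1.32. Summed macrophage markers stood at 128 to 164 CPM in the controls, 138 to 231 under shRNA-1 and 552 to 1001 under shRNA-2.

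Under shRNA-1, 4 of the 7 genes were lower than in the controls and 2 were higher, where 17.3% and 17.4% of all tested genes were called lower and higher and 34.7% in either direction (edgeR quasi-likelihood test, adjusted p under 0.05). Under shRNA-2, 3 were lower and 2 higher, against 24.2% and 24.4% of all genes, and 48.7% in either direction. Angpt1, Eltd1 and Cd34 fell and Cd44 and Il1rap rose with both hairpins, and 9.57% and 9.24% of all genes fell and rose with both. None of the 7 was called in opposite directions by the 2 hairpins, and 2.66% of all genes were. Cd93 fell under shRNA-1, and its shRNA-2 value did not pass. Cd47 was not called with either. The median log2 fold change of the 7 genes was -1.20 under shRNA-1 and 0.12 under shRNA-2, beside 0.023 and 0.0043 over all tested genes. The controls are shared by both comparisons.

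**Figure D1:**
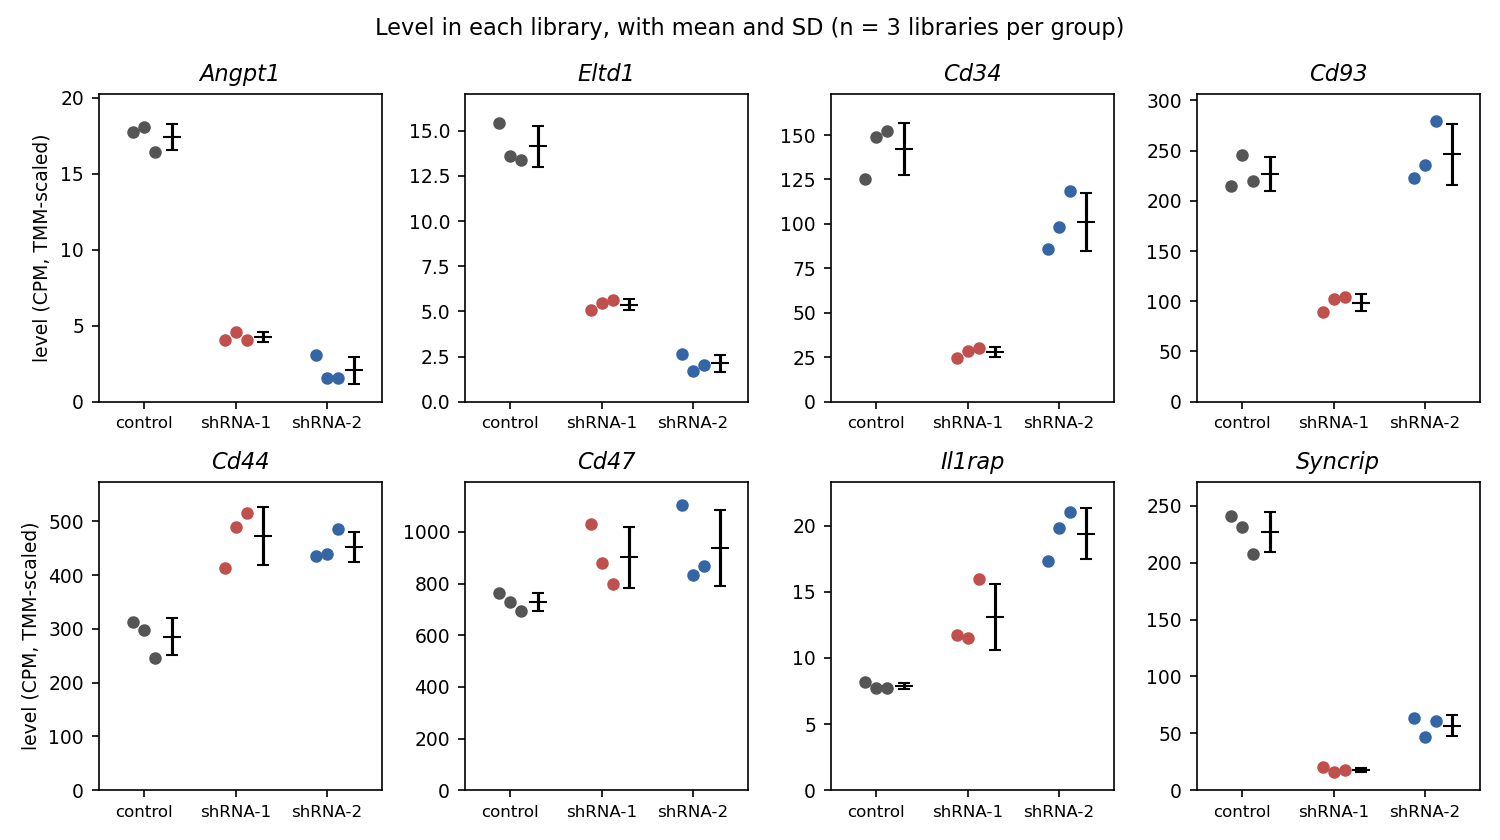
Level of each gene in each of 9 libraries (points; CPM scaled by TMM factors) by group, with the mean and SD of 3 libraries beside them, and Syncrip for comparison. Angpt1, Eltd1 and Cd34 lie lower in all 6 knockdown libraries than in the 3 controls, Cd44, Cd47 and Il1rap lie higher, and Cd93 is low in the shRNA-1 libraries.

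Angpt1, the ligand, had the largest change of the 7 genes under shRNA-2. Its level was 17.7, 18.0 and 16.4 CPM in the 3 controls, 4.06, 4.61 and 4.06 under shRNA-1, and 3.07, 1.55 and 1.55 under shRNA-2. The 3 groups did not overlap, and the shRNA-2 libraries were the lowest. Levels were 4.08-fold lower under shRNA-1 (log2 fold change -2.03 ± 0.23 (SE), edgeR adjusted p = 0.000161) and 8.32-fold lower under shRNA-2 (-3.06 ± 0.24, adjusted p = 3.06e-06). Among the falls of all tested genes these ranked 90 and 15. Knockdown libraries held 20 to 60 Angpt1 counts each and controls 272 to 371, so counting alone gives a coefficient of variation of 14.6% under shRNA-1 and 18.0% under shRNA-2. Summed markers of 3 other cell types were at 32.5 to 35.4 (stromal), 12.5 to 16.3 (megakaryocyte) and 25.6 to 34.9 CPM (mast cell) in the controls. They were at 34.9 to 35.4, 14.9 to 38.8 and 24.1 to 39.5 CPM under shRNA-1, and at 55.8 to 74.8, 59.1 to 112 and 13.3 to 17.9 CPM under shRNA-2. Their part in the fall of Angpt1 was not tested. In RNA of a whole culture, fewer cells that carry a transcript and less of it per cell cannot be told apart, here and in all results that follow.

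Eltd1, the adhesion receptor, moved much like Angpt1. It stood at 15.4, 13.6 and 13.4 CPM in the controls, 5.05, 5.45 and 5.63 under shRNA-1, and 2.64, 1.70 and 2.02 under shRNA-2. Again no library of 1 group reached into another group. The fall was 2.62-fold under shRNA-1 (log2 fold change -1.39 ± 0.18, edgeR adjusted p = 0.000348) and 6.59-fold under shRNA-2 (-2.72 ± 0.19, adjusted p = 1.92e-06). Both genes were lower under shRNA-2 than under shRNA-1, although Syncrip itself was lower under shRNA-1. The direct comparison of the hairpins gave 1.03 ± 0.26 for Angpt1 (shRNA-1 minus shRNA-2, edgeR adjusted p = 0.00772) and 1.33 ± 0.20 for Eltd1 (0.000359).

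Cd34, the sialomucin of stem and progenitor cells, had the opposite order of hairpins. The controls held 125, 149 and 152 CPM. Under shRNA-1 the values were 24.6, 28.7 and 30.5 CPM and under shRNA-2 86.1, 98.3 and 119 CPM. All 3 groups were apart, shRNA-1 lying far below the other 2. The level was 5.09-fold lower under shRNA-1 (log2 fold change -2.35 ± 0.15, edgeR adjusted p = 9.06e-06), the 46th largest fall of all tested genes. Under shRNA-2 it was 1.41-fold lower (-0.49 ± 0.14, edgeR adjusted p = 0.0136), and this call was lost without control replicate 2 or control replicate 3 (adjusted p = 0.0533 and 0.0598). The hairpins differed by -1.85 ± 0.15 (edgeR adjusted p = 5.45e-06).

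Cd93, a transmembrane glycoprotein with a C-type lectin domain, followed Cd34 in the shRNA-1 libraries. It stood at 214, 245 and 220 CPM in the controls, 89.0, 103 and 104 under shRNA-1, and 223, 236 and 279.9 under shRNA-2. The shRNA-1 libraries lay below all others, and the shRNA-2 libraries overlapped the controls. The level was 2.3-fold lower under shRNA-1 (log2 fold change -1.20 ± 0.13, edgeR adjusted p = 0.000122). Under shRNA-2 the value was 0.12 ± 0.13 (edgeR adjusted p = 0.460), with a 95% interval from -0.16 to 0.40. The hairpins differed by -1.32 ± 0.13 (edgeR adjusted p = 1.74e-05), so the response of Cd93 was not the same with each.

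Since CD34 and CD93 are also proteins of vessels, endothelial markers were read in the same libraries. Summed over 16 markers they stood at 39.7 to 56.8 CPM in the controls, 24.4 to 25.7 under shRNA-1 and 41.0 to 49.3 under shRNA-2, lower under shRNA-1 as Cd34 and Cd93 were. Of the 16 markers, 11 were under 1 CPM in the controls, 12 under shRNA-1 and 9 under shRNA-2. Tek, Cldn5, Robo4 and Sox17 had 0 counts in every library, which allows up to 0.133 to 0.329 CPM (3 counts, for counting error only), and the junction gene Cdh5 had 1 count in all 9 together. The largest single values were those of Pecam1, an adhesion gene that leukocytes also carry (23.7 ± 6.35, 6.59 ± 1.39 and 18.1 ± 1.15 CPM), and of Egfl7, a secreted vascular factor (13.2, 11.4 and 13.1 CPM). Pecam1 made up most of the fall of the summed markers under shRNA-1. The part of endothelial cells in the falls of Cd34 and Cd93 was not tested.

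Cd44, the hyaluronan receptor, rose to a like extent with both hairpins. Its level was 313, 298 and 246 CPM in the controls, 413, 490.1 and 516 under shRNA-1, and 435, 438 and 485 under shRNA-2. Every knockdown library was above every control, and the hairpins overlapped. The rise was 1.66-fold under shRNA-1 (log2 fold change 0.73 ± 0.14, edgeR adjusted p = 0.00223) and 1.59-fold under shRNA-2 (0.66 ± 0.14, adjusted p = 0.00189). The difference between the hairpins was 0.063 ± 0.14, with a 95% interval from -0.23 to 0.36 (edgeR adjusted p = 0.746).

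Il1rap, the shared co-receptor for interleukin-1 and interleukin-33, was the least abundant of the 7 in the controls and rose with both hairpins. It stood at 8.16, 7.76 and 7.74 CPM in the controls, 11.8, 11.5 and 16.0 under shRNA-1, and 17.3, 19.8 and 21.0 under shRNA-2. The groups did not overlap, and shRNA-2 was highest. The rise was 1.66-fold under shRNA-1 (log2 fold change 0.73 ± 0.16, edgeR adjusted p = 0.00545) and 2.46-fold under shRNA-2 (1.30 ± 0.16, adjusted p = 5.63e-05). The hairpins differed by -0.57 ± 0.16 (edgeR adjusted p = 0.0134), a call lost on leaving out replicate 1 or 2 of shRNA-1 or replicate 3 of shRNA-2 (adjusted p = 0.0525, 0.0660 and 0.0534). Once the ribosomal RNA share entered the model, the shRNA-1 calls of Il1rap (log2 fold change 0.48, edgeR adjusted p = 0.185) and Cd44 (0.58, 0.0747) were lost. The share is higher in all shRNA-1 libraries than in all controls, and its part in these rises cannot be told apart from the hairpin.

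Cd47, the signal against phagocytosis, was the most abundant of the 7 and the only one not called with either hairpin. It stood at 762, 729.8 and 692 CPM in the controls, 1031, 878 and 798 under shRNA-1, and 1105, 835 and 869 under shRNA-2. All 6 knockdown libraries were above the controls, by a small margin next to their own spread. Of all genes 12.9% had that order and 14.4% the reverse. The log2 fold changes were 0.31 ± 0.15 under shRNA-1 (95% interval -0.019 to 0.64, edgeR adjusted p = 0.132) and 0.36 ± 0.15 under shRNA-2 (0.034 to 0.69, adjusted p = 0.0648). The shRNA-2 value passed under 6 of 20 alternatives, among them DESeq2 (adjusted p = 0.0353) and the fit without shRNA-2 replicate 2 (0.0382). The hairpins differed by -0.053 ± 0.15 (edgeR adjusted p = 0.808).

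**Figure D2:**
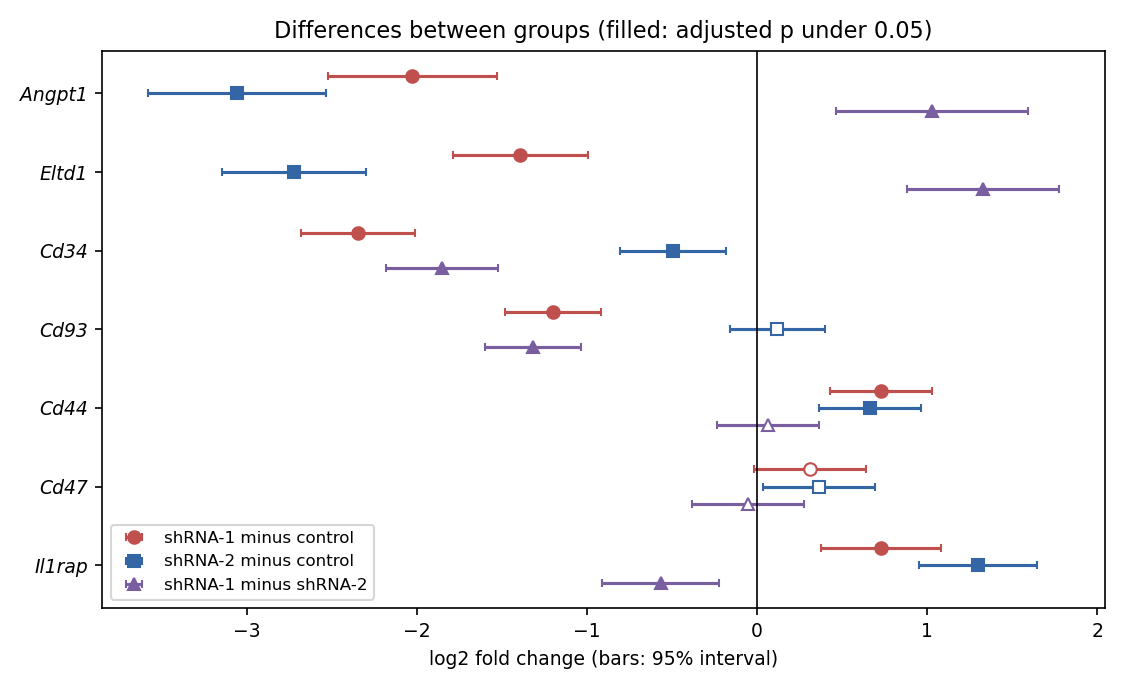
Log2 fold change of each gene (x axis) for shRNA-1 minus control (circles), shRNA-2 minus control (squares) and shRNA-1 minus shRNA-2 (triangles), with 95% intervals; filled symbols have an adjusted p under 0.05 in edgeR. Angpt1 and Eltd1 lie farther left under shRNA-2, Cd34 and Cd93 farther left under shRNA-1, and the Cd93 square and all Cd47 symbols are open.

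Between the hairpins, 3 of the 7 genes were called lower under shRNA-1 (Cd34, Cd93 and Il1rap) and 2 higher (Angpt1 and Eltd1). Over all tested genes 21.3% were called lower and 19.7% higher in this comparison. The libraries of the 2 groups did not overlap for 7 of the 7 genes under shRNA-1, 6 under shRNA-2 and 5 between the hairpins, where 52.6%, 55.4% and 49.8% of all genes did not.

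Levels were compared between genes per kilobase of the longest coding transcript in GENCODE, since longer transcripts can give more counts. In the controls Cd47 stood first at 139 ± 6.67 CPM per kilobase. It was followed by Cd34 (55.7 ± 5.76), Cd44 (50.9 ± 6.22), Cd93 (33.9 ± 2.48), Angpt1 (4.08 ± 0.204), Eltd1 (3.44 ± 0.271) and Il1rap (1.74 ± 0.0531; mean ± SD, n = 3 each). Cd34 and Cd44 lay within their spread of each other, and the place of Cd34 rests on the transcript used: per kilobase of all its exons together it stood at 19.5, below Cd93. Under shRNA-2 the last 3 genes stood in another order, with Il1rap at 4.29 ± 0.422, Eltd1 at 0.517 ± 0.116 and Angpt1 at 0.482 ± 0.206, the last 2 within their spread. Under shRNA-1 Cd93 (14.8 ± 1.27) stood above Cd34 (10.9 ± 1.18), and Il1rap (2.89 ± 0.554) above Eltd1 (1.31 ± 0.0721) and Angpt1 (0.996 ± 0.0740).

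On mm10, by GENCODE on the same assembly, Cd34 lies at chr1:194938819-194961279, Cd44 at chr2:102811141-102901665, Cd93 at chr2:148436640-148443563 and Eltd1 at chr3:151437887-151545086. Angpt1 lies at chr15:42424723-42676977, Il1rap at chr16:26581704-26730117 and Cd47 at chr16:49800533-49915010. Exons of Cd34, Il1rap and Angpt1 overlap those of an antisense gene each, Gm16897, Gm20319 and Gm17473. These had at most 2, 1 and 0 counts in any library. The sources used here give no strand setting for the counting, so reads of a gene and its antisense partner cannot be told apart.

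The RefSeq promoter table (GRCm38.p6) held 5 of the 7 genes: Cd34, Cd44, Cd47, Il1rap and Eltd1. The 250 bases before the start are shown for the 4 of these that were called with both hairpins, so that the promoters of genes that fell (Cd34, Eltd1) and rose (Cd44, Il1rap) can be read side by side. They lie at chr1:194938571-194938820 (plus strand), chr3:151437632-151437881 (plus), chr2:102901666-102901915 (minus) and chr16:26581455-26581704 (plus), written 5′ to 3′ along the gene. Capitals mark matches, on either strand, to 4 core motifs. For GATA factors the letters searched were AGATAA. For RUNX they were TGTGGT, and for MEIS factors TGACAG. For the ETS family they were AGGAAGT. None of the 4 holds another.
Cd34: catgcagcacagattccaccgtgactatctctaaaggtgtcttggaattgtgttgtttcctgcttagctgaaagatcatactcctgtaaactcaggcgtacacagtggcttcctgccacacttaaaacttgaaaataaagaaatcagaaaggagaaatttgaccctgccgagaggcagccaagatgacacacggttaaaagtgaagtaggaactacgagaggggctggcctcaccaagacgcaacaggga
Eltd1: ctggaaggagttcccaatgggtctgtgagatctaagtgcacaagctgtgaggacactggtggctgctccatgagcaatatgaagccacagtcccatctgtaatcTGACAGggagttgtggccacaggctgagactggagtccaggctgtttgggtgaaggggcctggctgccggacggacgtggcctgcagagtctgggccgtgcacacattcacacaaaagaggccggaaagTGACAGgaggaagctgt
Cd44: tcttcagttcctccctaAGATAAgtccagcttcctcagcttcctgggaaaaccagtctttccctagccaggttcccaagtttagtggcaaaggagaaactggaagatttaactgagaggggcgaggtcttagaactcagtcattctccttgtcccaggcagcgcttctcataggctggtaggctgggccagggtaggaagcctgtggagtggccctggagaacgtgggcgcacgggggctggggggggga
Il1rap: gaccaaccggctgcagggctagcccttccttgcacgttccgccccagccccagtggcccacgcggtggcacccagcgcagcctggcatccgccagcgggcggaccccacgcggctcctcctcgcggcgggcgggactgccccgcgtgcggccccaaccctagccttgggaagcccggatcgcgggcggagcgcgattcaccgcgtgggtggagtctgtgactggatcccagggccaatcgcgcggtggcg
The Eltd1 window held TGACAG at 2 places, starting 146 and 17 bases before the start, and the Cd44 window AGATAA at 233 bases. The windows of Cd34 and Il1rap held none of the 4 in these letters. Of 32851 promoters of this length, 15.9% held TGACAG, 9.99% AGATAA, 14.0% TGTGGT and 7.69% AGGAAGT. G and C made up 46.4% of the Cd34 window, 56.8% of Eltd1, 56.4% of Cd44 and 74.4% of Il1rap. These matches are a description of the letters and were not tied to any factor.

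The ligands, receptors and relatives of each protein were read from lists that leave the 7 genes out. Over all tested genes 9.24% rose and 9.57% fell with both hairpins, and the list counts below stand beside these shares. By rule, up to 2 genes per list were named for being called with both hairpins. For Angpt1, the receptor gene Tek and the receptor phosphatase gene Ptprb had 0 counts in every library, the related receptor Tie1 at most 4 counts, and the other ligands Angpt2 and Angpt4 at most 19 and 0. Of 9 other tested genes of the angiopoietin list, 2 fell with both hairpins and none rose with both (medians -0.049 under shRNA-1 and -0.079 under shRNA-2). The falls were in Angptl4, an angiopoietin-like inhibitor of lipoprotein lipase, at 17.8 ± 0.699, 9.51 ± 0.792 and 8.87 ± 1.13 CPM in the 3 groups (log2 fold change -0.91 ± 0.15 and -1.002 ± 0.14, edgeR adjusted p = 0.00101 and 0.000170), and in Pik3r2, a regulatory subunit of PI3-kinase (-0.73 ± 0.14 and -0.48 ± 0.14). The shRNA-2 call of Pik3r2 was lost without control replicate 3 (edgeR adjusted p = 0.0615), and both its calls were lost once the ribosomal RNA share entered the model (-0.45 and -0.36, adjusted p = 0.135 and 0.0527). Under shRNA-2, 2 of the 9 genes were higher and 3 lower, against 24.4% and 24.2% of all genes. The higher were Angptl2 (1.96, edgeR adjusted p = 0.00167) and Dok2 (1.21, 6.27e-05), named after their values were seen. Neither was called under shRNA-1.

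For Cd47, both of its best known partners rose. Sirpa, the receptor through which macrophages read CD47, rose from 81.6 ± 2.09 CPM to 139 ± 17.9 under shRNA-1 and 303 ± 26.1 under shRNA-2 (log2 fold change 0.77 ± 0.13 and 1.89 ± 0.13, edgeR adjusted p = 0.00109 and 1.37e-06). Thbs1, the matrix ligand thrombospondin, went from 86.9 ± 5.88 to 392 ± 124 and 816 ± 269 CPM (2.17 ± 0.26 and 3.23 ± 0.27, edgeR adjusted p = 0.000215 and 4.51e-06). Of 11 other tested genes of this list, 4 rose and none fell with both hairpins. The others were the integrin Itgav (0.98 ± 0.17 and 1.73 ± 0.17) and the ubiquilin Ubqln2 (0.39 ± 0.12 and 0.42 ± 0.12), named after their values were seen. Leaving out 1 of 5 libraries, any shRNA-1 library or control replicate 2 or 3, ended the shRNA-1 call of Ubqln2 (highest edgeR adjusted p = 0.120), and so did the ribosomal RNA share in the model (0.246). Total-count scaling ended both its calls (0.437 and 0.217). The list's medians were 0.10 under shRNA-1 and 1.37 under shRNA-2. The macrophage markers given above were also highest under shRNA-2, and their part in these rises was not tested.

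For Cd44, the ligand gene Spp1 (osteopontin) stood at 199 ± 103 CPM in the controls, 95.9 ± 14.1 under shRNA-1 and 719 ± 409 under shRNA-2. Its log2 fold changes were -1.05 ± 0.40 (edgeR adjusted p = 0.0598) and 1.85 ± 0.40 (0.00267), and the libraries of the controls and of shRNA-2 spread widely. The shRNA-1 value passed without shRNA-2 replicate 1 or shRNA-2 replicate 2 (adjusted p = 0.0167 and 0.0250), among other alternatives. In the model with the ribosomal RNA share it turned to 0.46 (adjusted p = 0.229), so no direction is given for it. The hyaluronan synthase Has2 had at most 3 counts per library. Of 11 other tested genes around Cd44, 2 rose with both hairpins, among them Srgn, and 1 fell, Hmmr (medians -0.0099 under shRNA-1 and 0.34 under shRNA-2). Srgn, the core protein serglycin, rose from 705 ± 49.7 to 1247 ± 131 and 1378 ± 156 CPM (0.82 ± 0.14 and 0.97 ± 0.14). Hmmr, a hyaluronan-binding protein of the mitotic spindle, fell from 90.4 ± 17.8 to 50.7 ± 4.03 and 41.2 ± 10.1 CPM (-0.83 ± 0.19 and -1.13 ± 0.19, edgeR adjusted p = 0.00598 and 0.000478). Adjusted for ribosomal RNA share, the shRNA-1 values were 0.64 for Srgn and -0.34 for Hmmr, and neither was called (edgeR adjusted p = 0.0547 and 0.334).

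For Cd34, the family member Podxl had at most 3 counts per library. Fut7, a fucosyltransferase of leukocytes, rose by 0.68 ± 0.13 and 0.45 ± 0.13 (edgeR adjusted p = 0.00220 and 0.0123). Its shRNA-1 call was lost with the ribosomal RNA share in the model (0.53, adjusted p = 0.0804) and its shRNA-2 call with total-count scaling (0.22, 0.168). Among 6 other tested genes of the list, 2 rose with both hairpins, Fut7 being 1 of them, and none fell with both (medians 0.46 and 1.23). For Cd93, the ligand gene Mmrn2 had 0 counts in every library, and none of 3 other tested genes was called with both hairpins.

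For Il1rap, the primary receptors were scarce: Il1r1 had at most 9 and Il1rl1, the interleukin-33 receptor, at most 12 counts per library. Of 19 other tested genes of this list, 3 rose and 2 fell with both hairpins, beside 9.24% and 9.57% of all genes. The list's medians were 0.22 under shRNA-1 and 0.31 under shRNA-2. Il1rn, the soluble antagonist of the interleukin-1 receptor, stood at 274 ± 55.2 CPM in the controls and at 424 ± 102 and 1474 ± 158 under the hairpins (log2 fold change 0.63 ± 0.20 and 2.43 ± 0.21, edgeR adjusted p = 0.0272 and 4.52e-06). Its shRNA-1 call was lost without control replicate 2, control replicate 3, shRNA-1 replicate 2 or shRNA-1 replicate 3 (highest adjusted p = 0.134). Myd88, the adaptor of the receptor, rose by 0.51 ± 0.12 and 0.98 ± 0.12, and Il1f9, a cytokine of the same family, by 1.53 ± 0.37 and 2.72 ± 0.36. Irak1, the kinase downstream, fell from 188 ± 11.5 CPM to 112 ± 7.46 and 85.3 ± 7.94 (-0.75 ± 0.12 and -1.14 ± 0.12, edgeR adjusted p = 0.000881 and 1.56e-05). Tollip, an inhibitor of the pathway, had -0.74 ± 0.22 and -0.62 ± 0.21, and its calls were lost without control replicate 1 (edgeR adjusted p = 0.0947 and 0.171), among others. Myd88, Il1f9 and Tollip were named after their values were seen. Of the 5 genes called with both hairpins, Irak1 alone kept its shRNA-1 call with the ribosomal RNA share in the model (-0.55, edgeR adjusted p = 0.0396). Il1rn, Myd88, Il1f9 and Tollip then stood at 0.75, 0.52, 1.12 and -0.45 (0.111, 0.0802, 0.190 and 0.347). The ligand gene Il1b stood at 0.59 ± 0.47 and -0.42 ± 0.48 (edgeR adjusted p = 0.346 and 0.493), and its shRNA-1 value passed without shRNA-1 replicate 1 (0.0237).

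**Figure D3:**
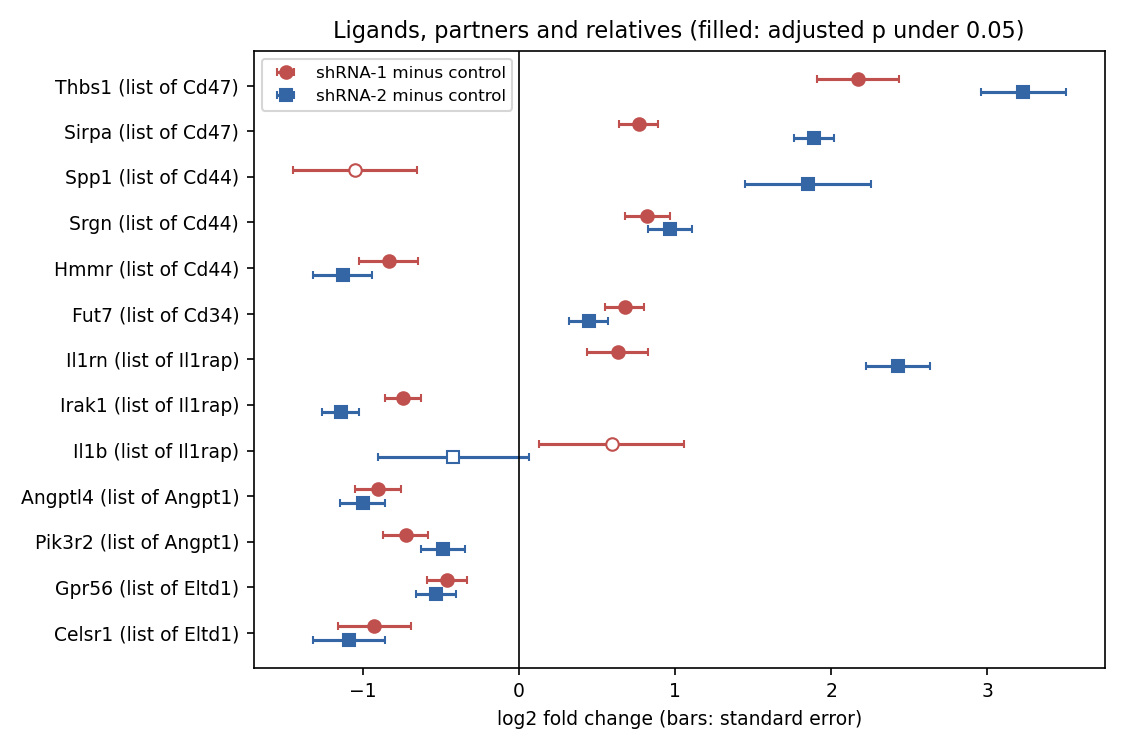
Log2 fold change (x axis, with standard error) of ligands, partners and relatives of the 7 genes for shRNA-1 minus control (circles) and shRNA-2 minus control (squares); filled symbols have an adjusted p under 0.05 in edgeR. Thbs1, Sirpa and Il1rn lie right of 0 with both hairpins and farther right under shRNA-2, and the adhesion receptors Gpr56 and Celsr1 lie left of 0.

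For Eltd1, 8 other adhesion G-protein-coupled receptors were tested, of which 4 fell and none rose with both hairpins (medians -0.46 and -0.76). Gpr56, a receptor of blood stem cells, stood at 30.7 ± 2.46 CPM in the controls and at 22.3 ± 0.840 and 21.2 ± 2.59 after knockdown (log2 fold change -0.46 ± 0.13 and -0.53 ± 0.13, edgeR adjusted p = 0.0166 and 0.00464). Its shRNA-1 call was lost without control replicate 2 or shRNA-1 replicate 3 (adjusted p = 0.0705 and 0.0626). Celsr1 and Celsr3, cadherin-type receptors of planar polarity, had -0.93 ± 0.23 and -1.32 ± 0.24 under shRNA-1 and -1.09 ± 0.23 and -1.41 ± 0.24 under shRNA-2. Lphn1, a latrophilin like Eltd1 in family, had -1.71 ± 0.32 and -1.44 ± 0.30. Celsr3 and Lphn1 were named after their values were seen. Adjusted for ribosomal RNA share, none of the 4 kept its shRNA-1 call, with Gpr56 at -0.31, Celsr1 at -0.80, Celsr3 at -1.05 and Lphn1 at -0.81 (edgeR adjusted p = 0.282, 0.151, 0.0845 and 0.128). All 4 kept their shRNA-2 calls there. Under shRNA-1, 1 of the 8 receptors was higher and 4 were lower, against 17.4% and 17.3% of all genes. Under shRNA-2, 1 was higher and 5 were lower, against 24.4% and 24.2%. Emr1, also on the macrophage list, rose under shRNA-2 (1.91, edgeR adjusted p = 6.59e-05). Gpr97, the most abundant of the 8, was not called with either hairpin (0.056 and -0.21, edgeR adjusted p = 0.752 and 0.172). Both were named after their values were seen.

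A list of other surface genes of stem and progenitor cells also holds myeloid ones, such as Cd33 and the macrophage marker Csf1r. Of its 21 tested genes, 5 were higher and 4 lower under shRNA-1, where 17.4% and 17.3% of all genes were. Under shRNA-2, 12 were higher and 2 lower, against 24.4% and 24.2% of all genes. With both hairpins 5 rose and 1, Gpr56, fell, beside 9.24% and 9.57% of all genes. The list's medians were 0.25 under shRNA-1 and 1.16 under shRNA-2. Summed macrophage markers, given above, were also highest under shRNA-2, and their part in these rises was not tested. Cd33, a sialic acid-binding receptor of myeloid cells, stood at 115 ± 3.38, 177 ± 28.2 and 370.4 ± 43.0 CPM in the 3 groups (log2 fold change 0.63 ± 0.14 and 1.69 ± 0.14, edgeR adjusted p = 0.00572 and 4.52e-06), and the tetraspanin Cd9 rose by 0.80 ± 0.17 and 2.26 ± 0.18. The other 3 rises, named after their values were seen, were Ly6a, the antigen Sca-1 (2.51 ± 0.51 and 2.597 ± 0.51), Cd38 (2.50 ± 0.26 and 2.32 ± 0.26) and Cd48 (0.97 ± 0.34 and 1.72 ± 0.33). The shRNA-1 call of Cd48 was lost without any 1 of 6 libraries, the 3 controls, shRNA-1 replicates 2 and 3 and shRNA-2 replicate 3 (highest edgeR adjusted p = 0.157). With the ribosomal RNA share in the model, the shRNA-1 calls of Ly6a (1.31, edgeR adjusted p = 0.175) and Cd48 (0.26, 0.724) were lost, and with total-count scaling those of Cd33 (0.37, 0.0793) and Cd9 (0.54, 0.0524). Itga6, an integrin chain named after its values were seen, had the hairpin order of Cd34, at 34.0 ± 2.84, 17.5 ± 2.08 and 29.2 ± 4.38 CPM. It fell under shRNA-1 (-0.96 ± 0.15, edgeR adjusted p = 0.000837), stood at -0.22 ± 0.14 under shRNA-2 (0.222), and differed between the hairpins by -0.74 ± 0.15 (0.00209). Kit, the stem cell factor receptor, stood at 0.36 ± 0.19 under shRNA-1 (edgeR adjusted p = 0.149) and at -0.81 ± 0.19 under shRNA-2 (0.00453). Il3ra, the interleukin-3 receptor chain used as a leukaemia stem cell marker in patients, stood at -0.23 ± 0.26 and -0.14 ± 0.26 (edgeR adjusted p = 0.531 and 0.678), and Flt3 had at most 7 counts per library.

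The genes most like each of the 7 were ranked by Pearson's r of log2 CPM over 9 libraries, among 8681 other genes with a mean of at least 5 CPM. The 9 points fall into 3 groups, so r mostly reflects the group means, and it is given as a description. Nearest to Angpt1 were Klhdc4 (r = 0.994), Prmt5 (0.988) and Lss (0.987), and nearest to Eltd1 were Mbtd1 (0.996), Nudc (0.993) and Phf19 (0.992). Nearest to Cd34 were Wwp2 (0.989), Kat2b (0.985) and Fntb (0.983), and to Cd93 Phf23 (0.982), Synj2 (0.979) and Pygb (0.978). Lnpep (0.985), Cebpd (0.976) and Tma7 (0.974) came nearest to Cd44. Lbh (0.982), Cbx8 (0.980) and Sbds (0.971) came nearest to Cd47, and Reep3 (0.985), Cd24a (0.985) and Csnk1g1 (0.985) to Il1rap. Among the 7 themselves r was 0.981 between Angpt1 and Eltd1 and 0.958 between Cd34 and Cd93. Prmt5, the arginine methyltransferase, went from 175 to 92.7 and 74.1 CPM and Kat2b, a histone acetyltransferase, from 14.9 to 4.99 and 11.7 CPM (group means, shRNA-1 then shRNA-2). With total-count scaling, 8 of these 21 neighbours remained, and with DESeq2 size factors 21 did.

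**Figure D4:**
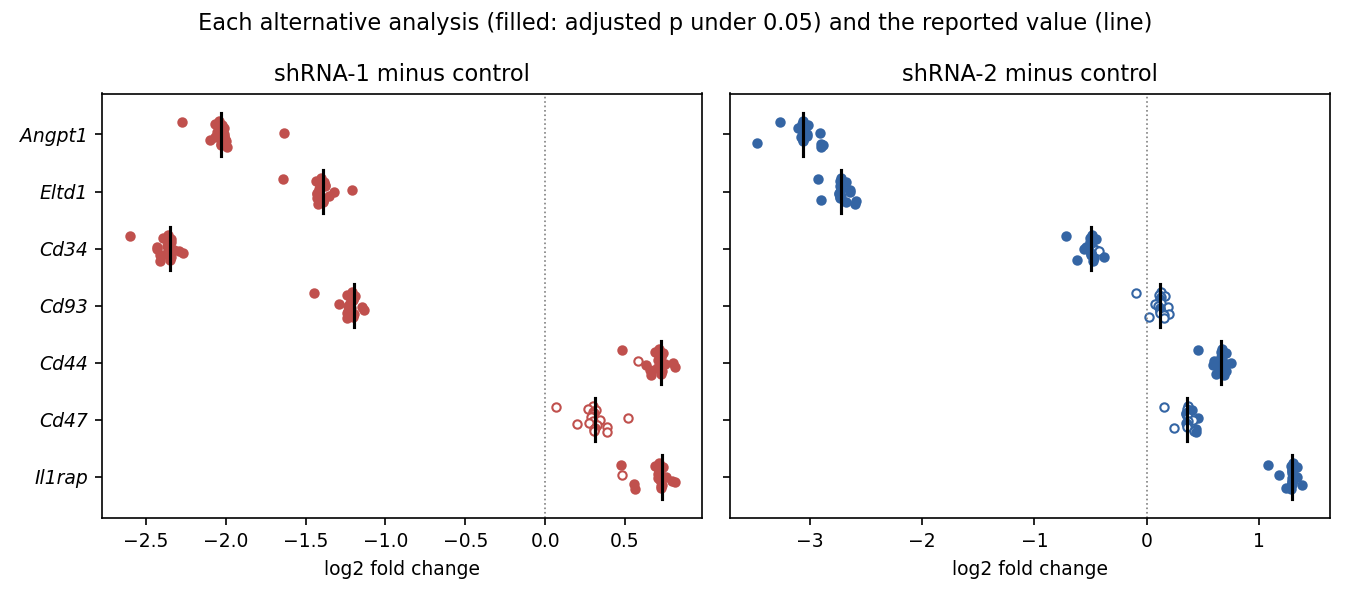
Log2 fold change of the 7 genes against control (x axis) for shRNA-1 (left panel) and shRNA-2 (right panel) under each of 20 alternatives (points, filled where the adjusted p is under 0.05) and as reported (black line). All points of Angpt1, Eltd1 and Cd34 lie left of 0 in both panels, and those of Cd44 and Il1rap right of 0.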

How the data were processed

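Per the labels' protocols, cDNA was made from total RNA by oligo-dT priming, with random decamers for its complementary strand. The values the authors deposited are raw counts of reads for each gene symbol, in a separate file per library. STAR 2.3.0e, HTSeq 0.6.0 and mm10 are named in the submitters' processing notes, while an annotation release, a strand setting and a rule for multiply mapped reads were not given in the sources used here. Counts were summed by symbol (Cd47 stands in 2 entries). Genes were filtered with filterByExpr, scaled with TMM and tested across all 9 libraries with edgeR 4.0.16 (quasi-likelihood, group as the only term, Benjamini-Hochberg adjustment over 12663 genes, threshold 0.05; R 4.3.3). Intervals are at 95%. The pipeline was tested on simulated counts with about 50 genes changed at each fold, far fewer than were called in the data. It recovered 16.3% (shRNA-1) and 10% (shRNA-2) of 1.5-fold changes, 68% and 64% of 2-fold and 100% and 96% of 4-fold changes. A small change can therefore be present in a gene that was not called.

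The members, gene lists and naming rule were chosen with earlier results of these data known. The rule named the 7 genes, the Syncrip check, fixed partner genes, 2 genes per list (those called with both hairpins with the highest means, or the highest means where none was) and 3 like genes per member. Gipc1 and Thbd, also picked, were not called and are not described, and 1 fixed partner gene is not reported here. Markers of 9 cell types were read as sums. The alternatives were other scalings, filters and tools, fits of 2 groups, the replicate number as a block, fits without or adjusted for ribosomal RNA (Gm26924, mt-Rnr1, mt-Rnr2) and each library left out. After the data had been seen, a fit without the library richest in ribosomal RNA of each knockdown group was added. Positions and lengths came from GENCODE M21 (GRCm38).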

Additional observations from a re-analysis of the deposited data

Results flagged for a closer look

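For 5 of the 7 genes the response differed between the hairpins by the direct test of shRNA-1 minus shRNA-2 in edgeR's quasi-likelihood fit. The log2 differences were -1.85 for Cd34 (adjusted p = 5.45e-06), -1.32 for Cd93 (1.74e-05) and -0.57 for Il1rap (0.0134), each lower under shRNA-1. They were 1.03 for Angpt1 (0.00772) and 1.33 for Eltd1 (0.000359), each higher under shRNA-1. Of the other genes described, 6 that were chosen after their values were seen also differed by the same test. Pecam1 (-1.45), Prom1 (-1.65), Csf2rb (-1.40), Il1r2 (-3.28) and Itga6 (-0.74) were lower under shRNA-1 than under shRNA-2, and Cd97 (1.36) was higher. They are not the full set. Also called lower were Spp1 (-2.91), Il1rn (-1.80), Cd9 (-1.46), Il1f9 (-1.19), Sirpa (-1.13), Cd33 (-1.06), Thbs1 (-1.06), Itgav (-0.75) and Myd88 (-0.47). Kit (1.17) and Irak1 (0.40) were also called higher. Over all genes 41.0% differed between the hairpins by this test.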

How the results depend on the processing

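Each of the 21 log2 fold changes of the 7 genes was recomputed under 20 alternatives. Of these 420 values, 400 kept their direction and their side of the threshold, 7 lost a call, 6 gained one and 7 changed sign, all 7 in values that were not called. Adjusted for ribosomal RNA share (the covariate), 0 of the 7 genes were called higher under shRNA-1, against 2, and the hairpin differences of Cd44 and Cd47 turned to -0.016 and 0.066. The same differences turned to -0.00066 and 0.031 without shRNA-1 replicate 3, that of Cd47 to 0.072 without shRNA-2 replicate 1, and that of Cd44 to -0.026 without both knockdown libraries richest in ribosomal RNA. Total counts without TMM turned Cd93 under shRNA-2 to -0.098 and Il1r2 under shRNA-1 to -0.17. That scaling put the median gene at -0.23 (shRNA-1) and -0.21 (shRNA-2), and 23.8% and 33.6% of called genes were then higher, against 50.1% and 50.2%. Il3ra turned to 0.30 (shRNA-1) and 0.078 (shRNA-2) with the covariate, to 0.028 without shRNA-1 replicate 3, to 0.043 without shRNA-2 replicate 2, and to 0.030 and 0.041 without both libraries. Spp1 under shRNA-1 turned to 0.46 with the covariate, and Il1r2 under shRNA-1 to -0.096 without control replicate 1 and -0.041 without shRNA-1 replicate 2. Over the fits that each left out 1 library, these values ran from -0.00066 to 0.15 (Cd44) and from -0.16 to 0.072 (Cd47) between the hairpins, from -0.096 to 0.21 for Il1r2 and from -0.38 to 0.028 for Il3ra (shRNA-1), and from -0.39 to 0.043 for Il3ra (shRNA-2). The cause of these shifts was not tested. With the covariate 1358 genes in all were called under shRNA-1, against 4389, and without control replicate 3 or shRNA-1 replicate 2 the number was 2916 or 2925.

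The covariate also ended the shRNA-1 calls of Pik3r2, Srgn, Hmmr, Fut7, Celsr1, Celsr3, Lphn1, Gpr56, Il1rn, Il1f9, Myd88, Tollip, Ubqln2, Ly6a, Cd48, Prom1, Csf2rb and Cd97 (edgeR adjusted p between 0.0547 and 0.724), and the shRNA-2 calls of Pik3r2 (0.0527) and Tollip (0.0757). Total counts ended those of Cd33, Cd9, Il1rn, Myd88, Cd48, Cd97 and Ubqln2 under shRNA-1 and of Fut7 and Ubqln2 under shRNA-2. Leaving out both libraries richest in ribosomal RNA ended the shRNA-2 calls of Fut7 (edgeR adjusted p = 0.0521) and Tollip (0.120). It also ended the shRNA-1 calls of Il1rn (0.0665), Cd48 (0.102), Tollip (0.0522) and Ubqln2 (0.0523). Whether the replicate numbers pair the libraries is not settled. Deviations of same-numbered libraries from their group means correlated at -0.13 to 0.34, above 0 in 7 of 9 pairs and above 0.1 in 6. Those of 13 of 18 other pairs were below 0. Since deviations within a group sum to 0, the other pairs are bound to the same-numbered ones and are no separate evidence. With the replicate block, Cd47 under shRNA-2 was called (0.35, adjusted p = 0.0258) and no other call of the 7 genes changed; over all genes it called 4963, 6645 and 5640 (shRNA-1, shRNA-2 and between them), against 4389, 6162 and 5192. Depth limits Angpt1 and Eltd1 most, with 20 to 71 counts in a knockdown library.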

Other observations

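Some surface and receptor genes of the lists, chosen here after their values were seen, differed between the hairpins by the direct test. Pecam1, an adhesion receptor of endothelium and leukocytes, went from 23.7 ± 6.35 CPM in the controls to 6.59 ± 1.39 under shRNA-1 (log2 fold change -1.84 ± 0.22, edgeR adjusted p = 0.000211) and 18.1 ± 1.15 under shRNA-2 (-0.39 ± 0.20, adjusted p = 0.126; 0.0180 without control replicate 1). The difference, shRNA-1 minus shRNA-2 as in those that follow, was -1.45 ± 0.22 (edgeR adjusted p = 0.000337). Prom1, the stem cell antigen CD133, stood at 61.2 ± 9.32, 43.5 ± 1.27 and 136 ± 13.8 CPM (-0.49 ± 0.13 and 1.16 ± 0.13, edgeR adjusted p = 0.0146 and 3.54e-05). Its shRNA-1 call was lost without control replicate 3 or shRNA-1 replicate 3 (adjusted p = 0.0741 and 0.0537), or with the ribosomal RNA share in the model (0.173), and the hairpins differed by -1.65 ± 0.14 (5.65e-06). Csf2rb, the shared chain of the receptors for interleukin-3 and GM-CSF, fell under shRNA-1 (-0.75 ± 0.13, edgeR adjusted p = 0.00136) and rose under shRNA-2 (0.64 ± 0.13, 0.00151), a difference of -1.40 ± 0.13 (1.22e-05). Its shRNA-1 call was lost with the ribosomal RNA share in the model (-0.53, adjusted p = 0.0630).

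Il1r2, the decoy receptor that binds interleukin-1 without signalling, stood at 27.6 ± 6.30 CPM in the controls, 29.1 ± 4.90 under shRNA-1 and 283 ± 45.7 under shRNA-2 (log2 fold change 3.36 ± 0.20, edgeR adjusted p = 7.90e-07), a difference between the hairpins of -3.28 ± 0.20 (1.24e-06). Cd97, an adhesion receptor of leukocytes, fell under shRNA-2 (-0.99 ± 0.10, edgeR adjusted p = 2.07e-05). Under shRNA-1 it stood at 0.38 ± 0.10 (0.0157), a call lost without control replicate 2 or 3 or shRNA-1 replicate 2 or 3 (highest adjusted p = 0.0655), among other alternatives. Its hairpin difference was 1.36 ± 0.11 (edgeR adjusted p = 3.92e-06).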
